A study of Homo sapiens with 8 samples.

Results

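The samples described here are PC3 cells under control siRNA, the 4 samples titled as control siRNA replicates among the 8 samples of the series. PC3 is an established line derived from a bone metastasis of human prostate carcinoma. As background, the line grows without androgen and is known to lack alpha-catenin. The cells grew in serum-supplemented DMEM, received a non-specific siRNA, and were harvested for total RNA after 48 hours, per the labels. The other 4 samples of the series, transfected against the antisense transcript TRPM2-AS, enter no value below. All 4 control samples share 1 cell line, the transfection and the non-specific siRNA, so they are not untreated cells. The labels do not say whether the replicates came from separate cultures, so the spread between them may be technical. With 1 group there is no comparison between conditions, and no p-value is given.

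A bead array carries probes that each bind a labelled transcript, and the brightness of a probe depends on the amount of that transcript and on the probe itself. A probe is called detected when its signal exceeds that of nearly all control beads. The brightness of one gene is therefore not set against that of another as an amount of RNA, and a gene called undetected is one whose probe was not above background.

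Values below are background-corrected, quantile-normalized intensities on the log2 scale, given for arrays 1 to 4 in that order, with the SD between the 4 arrays after ±. The arrays are numbered by their columns in the non-normalized table. Columns 1, 2, 3 and 4 ranked the 48798 probes exactly as the processed values of replicates 1, 3, 2 and 4 did (Spearman rho of 1 across probes). Between 13163 and 13972 probes were detected per array at a detection p under 0.01. The 95th percentile of the non-normalized intensity was 1954 on array 2 and 2286 to 2303 on the other arrays. The dimmest detected probe had a log2 intensity of 5.98 to 6.23. Of all probes, 28094 carried 1 gene name, which gave 18850 genes, each read by its brightest probe.

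Detection split the genes into a pair of large classes with few genes between them. Of 18850 genes, 8717 (46.2%) were detected on all 4 arrays and 9093 (48.2%) on none. A further 1040 (5.52%) were detected on 1 to 3 arrays. Among the detected, 851 genes (4.51%) lay in the top 5% of named genes on each array and are called bright. The mean log2 intensity of bright genes ran from 12.14 to 16.11, with a median of 13.07. Genes detected on all arrays ran from 6.15 to 16.11 with a median of 9.28, while those on no array ran from 4.47 to 6.01 with a median of 4.91. Genes on 1 to 3 arrays had a median of 6.04, at the edge of detection. Bright genes also spanned less of the genome, with a median of 13.3 kb from start to end, against 30.2 kb for the other genes detected on all arrays and 19.2 kb for the undetected. Over chromosomes, the share of genes detected on all arrays lay between 39.7% on chromosome 13 and 54.6% on chromosome 14.

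**Figure D1:**
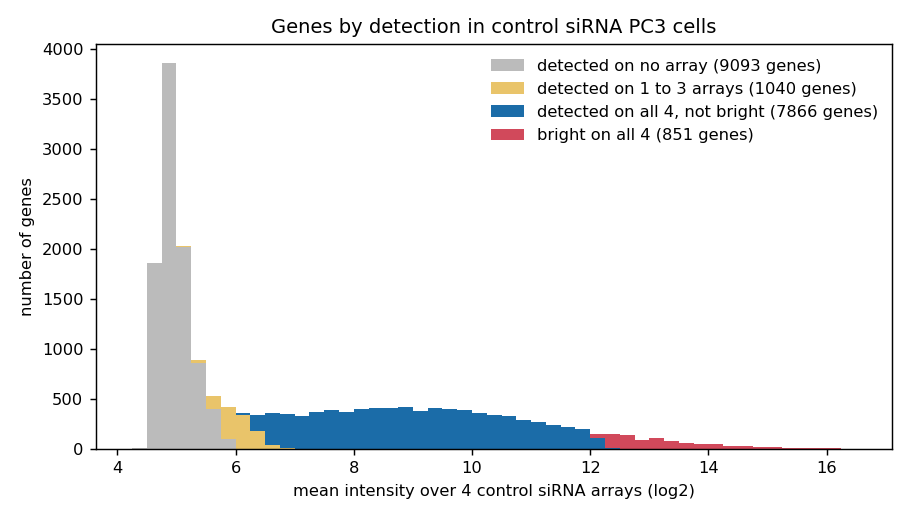
Histogram of the mean log2 intensity over the 4 control siRNA arrays (x axis) for 18850 genes (y axis, number of genes), stacked by detection class. The 9093 undetected genes form a narrow peak near their median of 4.91, and the 8717 detected genes spread over a broad range whose upper end holds the 851 bright genes.

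Several of the brightest genes encode parts of protein synthesis, the cytoskeleton and respiration, and others have different roles. The translation elongation factor EEF1A1 read 16.12, 16.14, 16.09 and 16.10, with a mean of 16.11 ± 0.02. The ribosomal proteins RPL8, RPS29, RPL38, RPL41, RPS25 and RPS27 followed with means between 15.66 and 16.09 and SDs between 0.02 and 0.12. These genes sat at the top of the scale on every array. Among cytoskeletal genes, the cytoplasmic actins ACTG1 and ACTB had means of 15.98 ± 0.10 and 15.41 ± 0.14, and the tubulins TUBA1C and TUBA1B had 15.83 ± 0.03 and 15.58 ± 0.05. The actin-binding proteins PFN1 and TMSB4X had 15.58 ± 0.09 and 15.40 ± 0.02. Actins, tubulins and ribosomal proteins have near-identical copies, so a probe named for one may also read its relatives. The respiratory chain subunit COX7C had a mean of 15.98 ± 0.09 and the ATP synthase subunit ATP5F1B one of 15.58 ± 0.12. Also in this group were the RNA helicase EIF4A1 (15.82 ± 0.06), the polyamine regulator OAZ1 (15.77 ± 0.18) and the calcium-binding protein TPT1 (15.76 ± 0.06). The iron-storing ferritin light chain FTL had 15.64 ± 0.10 and the membrane-binding annexin ANXA2 had 15.53 ± 0.06.

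Some names among the brightest rested on 1 probe of several. The probe that made LAIR1, an inhibitory receptor of immune cells, bright had a mean of 15.59 ± 0.09, whereas its other probe read 5.13, 5.12, 5.30 and 5.29 and was detected on no array. A similar split was seen for CLEC2D, a lectin-like ligand of a natural killer cell receptor, whose probes had means of 14.73, 8.43 and 4.93. SLC7A5P2, a pseudogene of an amino acid carrier, had a bright probe at 15.46 ± 0.11 beside probes detected on no array. ATP5F1EP2, a pseudogene of an ATP synthase subunit, had a mean of 15.37 ± 0.10. For such pseudogenes, a probe may also read RNA of the parent gene, which was not tested. Of 6131 genes with more than 1 probe, 3409 had a probe detected on all arrays, and 1762 of these (51.7%) also had a probe detected on none. What the split probes bind was not tested.

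Gene families chosen by symbol separated widely by detection. Of 76 cytosolic ribosomal protein genes, 72 were detected on all arrays and 55 were bright. Mitochondrial ribosomal proteins were detected for 75 of 76 genes, with 17 bright. The proteasome, which degrades tagged proteins, had 39 of 43 subunit genes detected and 17 bright, led by PSMC1 at 14.03. The other 4 were detected on no array, among them PSMB9, a subunit induced by interferon, and PSMA8, a subunit of the testis. Respiratory complex I had 28 of 32 subunits detected and 18 bright, led by NDUFA1 at 14.16. Translation initiation factors were detected for 45 of 53 genes, and 20 were bright. Each of these shares lies above the 46.2% of all genes.

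Families of specialised tissues lay at the other end. Olfactory receptors, the odour receptors of the nose, were detected on all arrays for 1 of 364 genes, OR2W3 at 6.77, and on 1 to 3 arrays for 4. No taste receptor of 26 and no late cornified envelope gene of 16 was detected on any array. Keratin-associated proteins of hair had 1 of 75 detected, KRTAP20-2 at 6.83, and beta-defensins, which are antimicrobial peptides, 1 of 30, DEFB119 at 6.79. These lone members lay close to the dimmest detected probes. Zinc finger genes, a large family of DNA-binding proteins, were detected for 231 of 452 genes, near the share of all genes, and none was bright. Potassium channel genes had 12 of 86 detected, protocadherins 6 of 69 and cytochromes P450 8 of 53. Of 17 genes that mark other organs, 16 were detected on no array, among them insulin (INS), albumin (ALB), thyroglobulin (TG) and prolactin (PRL). The exception was MBP, known as myelin basic protein, which read 10.02, 9.96, 10.10 and 10.05 and was detected on all arrays by each of its 3 probes.

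**Figure D2:**
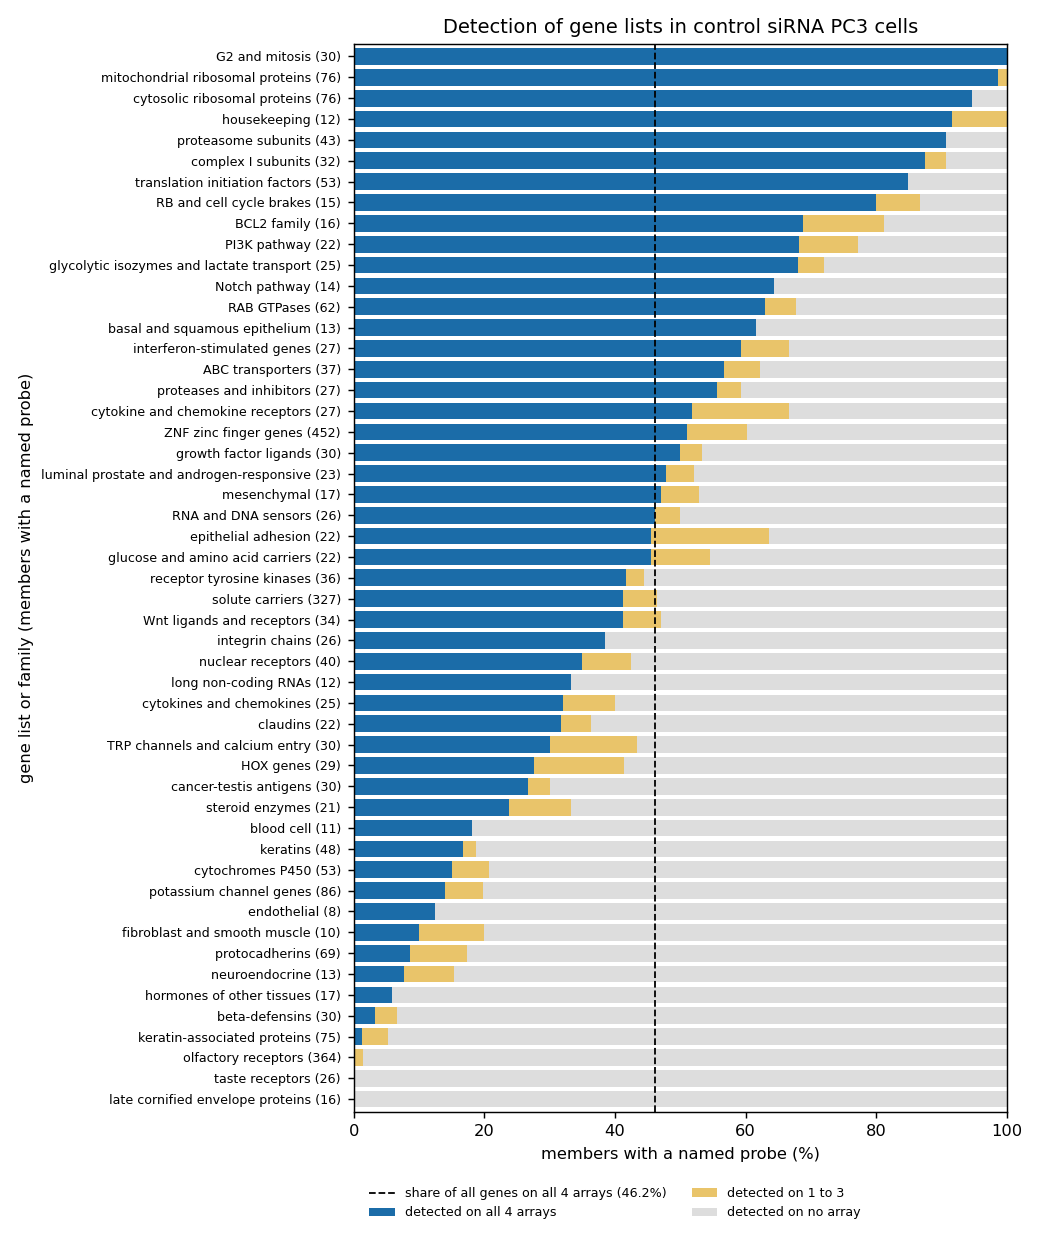
Share of the members of each gene list or symbol family (y axis, number with a named probe in parentheses) detected on all 4, on 1 to 3 and on no control siRNA array (x axis, percent of members). The dashed line marks the 46.2% of all genes; G2 and mitosis genes and ribosomal proteins stand at the top, and taste receptors and late cornified envelope proteins at 0.

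Genes of the G2 phase and mitosis, which prepare, align and separate the chromosomes of dividing cells, were detected without exception. All 30 listed genes were detected on all 4 arrays, and 7 were bright. The separase inhibitor PTTG1 read 13.53, 13.39, 13.66 and 13.61, and the ubiquitin-conjugating enzyme UBE2C read 13.48, 13.54, 13.52 and 13.28. The checkpoint protein BUB3 had a mean of 13.23 ± 0.11 and the spindle kinase AURKA one of 13.01 ± 0.11. CDC20, which activates the anaphase-promoting complex, read 12.83, 13.30, 12.91 and 13.24. The mitotic kinase CDK1 read 12.06, 11.83, 12.10 and 11.97, and the spindle midzone protein PRC1 read 11.88, 12.12, 11.90 and 11.96. At the low end stood MKI67, the Ki-67 antigen of dividing cells, with 6.99, 6.73, 7.17 and 6.80. The means of the list spanned 6.92 to 13.55, and every member was above background on every array.

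Promoters of G2 and mitosis genes are known to carry the CCAAT box and the cell cycle gene homology region, abbreviated CHR, with the letters TTTGAA. Sequence was taken from RefSeq on GRCh38.p14 for the 250 bases before each gene's start, and both strands were searched. Of the 24 listed genes with a promoter in the table, 20 (83.3%) held CCAAT, 13 (54.2%) held TTTGAA and 12 held both. Among all 27303 RefSeq promoters of that length, 33.0% held CCAAT and 13.6% held TTTGAA. A match is a description of letters, not a binding site. The windows of CDC20 (chr1:43358731-43358980, plus strand), CDK1 (chr10:60778081-60778330, plus strand) and PRC1 (chr15:90994536-90994785, minus strand) are shown because they hold both motifs. They read 5′ to 3′ on the gene's strand, with matches on either strand in capitals, so that TTCAAA is TTTGAA on the other strand.
CDC20: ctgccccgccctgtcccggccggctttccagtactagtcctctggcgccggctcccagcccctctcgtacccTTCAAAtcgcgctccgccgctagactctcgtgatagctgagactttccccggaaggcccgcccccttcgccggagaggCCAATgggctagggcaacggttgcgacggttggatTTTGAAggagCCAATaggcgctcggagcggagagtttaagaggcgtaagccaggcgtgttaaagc
CDK1: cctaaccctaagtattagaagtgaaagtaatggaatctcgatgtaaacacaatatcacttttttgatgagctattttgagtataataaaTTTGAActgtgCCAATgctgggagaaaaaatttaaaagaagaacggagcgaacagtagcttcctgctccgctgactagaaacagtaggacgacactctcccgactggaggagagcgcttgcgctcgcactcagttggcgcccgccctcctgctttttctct
PRC1: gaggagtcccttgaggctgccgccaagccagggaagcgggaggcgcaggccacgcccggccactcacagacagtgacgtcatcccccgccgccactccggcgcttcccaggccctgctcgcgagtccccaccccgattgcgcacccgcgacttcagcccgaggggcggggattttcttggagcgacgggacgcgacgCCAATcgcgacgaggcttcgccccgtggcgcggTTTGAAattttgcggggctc
Counting back from the start, CCAAT began at -100 and -55 in CDC20, at -150 in CDK1 and at -53 in PRC1. TTTGAA began at -178 on the other strand and at -65 in CDC20, at -161 in CDK1 and at -20 in PRC1.

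Promoter composition differed between the detection classes. The ratio of observed to expected CpG, which is high in CpG islands, had a median of 0.857 in the 713 bright genes with a promoter in the table and 0.839 in the 7257 genes detected on all arrays. It was 0.769 in the 817 genes on 1 to 3 arrays and 0.441 in the 6795 undetected genes. The GC box (GGGCGG) was held by 67.0% of bright promoters, 69.2% of those detected on all arrays and 40.0% of the undetected. The TATA motif TATAAA was held by 7.43%, 5.17% and 13.4% of these classes, with the bright genes between the others. The E-box CACGTG, a motif of MYC and related factors, was held by 13.0%, 9.23% and 5.95%. The 289 olfactory receptors with a promoter in the table had a median CpG ratio of 0.127, with TATAAA in 31.5% and TTTGAA in 32.5%. Median GC content was 37.2% in their promoters, 63.6% in bright genes, 65.2% in genes detected on all arrays and 57.2% in the undetected. Motifs were counted anywhere in the 250 bases, and how far their shares follow base composition was not tested. Genes share sequence and history, and no test of the differences between classes was made.

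A pair of windows shows that TATAAA occurred at either end of the brightness scale. The ribosomal protein gene RPS3 (mean 15.56, chr11:75399268-75399517, plus strand) was among the bright genes with the motif. KLK3, which encodes prostate-specific antigen (chr19:50854665-50854914, plus strand), was detected on no array. Capitals mark TTTATA, which is TATAAA on the other strand.
RPS3: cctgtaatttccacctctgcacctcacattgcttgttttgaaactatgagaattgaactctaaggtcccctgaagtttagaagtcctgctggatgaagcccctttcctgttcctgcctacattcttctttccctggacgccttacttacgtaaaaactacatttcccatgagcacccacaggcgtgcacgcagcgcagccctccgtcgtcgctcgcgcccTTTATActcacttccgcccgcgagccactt
KLK3: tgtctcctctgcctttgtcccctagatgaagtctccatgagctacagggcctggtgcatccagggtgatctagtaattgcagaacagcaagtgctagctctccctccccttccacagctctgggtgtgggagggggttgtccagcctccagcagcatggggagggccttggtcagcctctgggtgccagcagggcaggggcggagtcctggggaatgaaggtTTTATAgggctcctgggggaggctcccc
The match began at -30 in RPS3 and at -28 in KLK3. The CpG ratio was 0.869 in RPS3 and 0.0438 in KLK3. Single genes departed from the class medians: the undetected FN1, SYP and CTNNA1 had ratios of 0.878, 0.913 and 0.933, and the detected KRT8 and CD68 had 0.0663 and 0.0604.

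**Figure D3:**
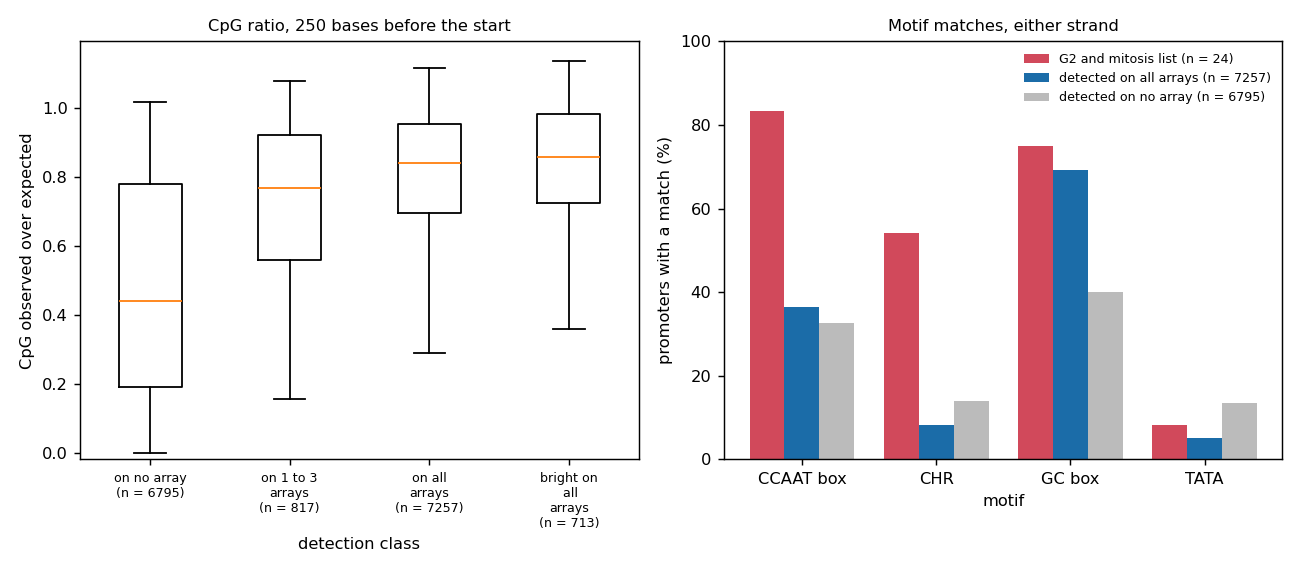
Left, the CpG observed over expected ratio in the 250 bases before the start (y axis) by detection class, with the median as the line, quartiles as the box and the 5th and 95th percentiles as whiskers. Right, the percent of promoters with each motif on either strand for the G2 and mitosis list (24 promoters), genes detected on all arrays and genes detected on no array; CCAAT and CHR stand highest in the first group.

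In the prostate gland, luminal cells secrete under androgen control, basal cells lie beneath them and rare neuroendocrine cells release peptides. Of 23 luminal and androgen-responsive genes with a probe, 11 (47.8%) were detected on all arrays, near the 46.2% of all genes, 1 on some and 11 on none. The pioneer transcription factor FOXA1 read 12.16, 11.94, 12.19 and 12.05, and the epithelial transcription factor SPDEF read 9.20, 9.32, 9.22 and 9.08. The prostate transporter SLC45A3 had a mean of 9.52 ± 0.02, nearly the same value on each array. HOXB13, a homeobox gene of the prostate, varied more, with 7.84, 7.78, 8.52 and 8.18. The luminal keratins KRT8 and KRT18 had means of 9.66 ± 0.06 and 8.76 ± 0.26. The stress-responsive NDRG1 had a mean of 9.13 ± 0.13 and the membrane protein STEAP1 one of 8.98 ± 0.10.

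The secreted products of luminal cells were undetected. KLK3 read 4.68, 4.87, 4.78 and 4.59, all within the range of undetected genes. KLK2 and KLK4, prostatic acid phosphatase (ACP3), prostate-specific membrane antigen (FOLH1) and the secretory proteins MSMB and AZGP1 were likewise detected on no array, as was the cold-sensing channel TRPM8. The fusion partner TMPRSS2, a membrane protease, read 5.99, 6.03, 6.08 and 5.13 and was detected on 1 array. Other androgen-responsive genes were detected on all arrays, with the chaperone FKBP5 at 7.48 ± 0.14, the membrane protein PMEPA1 at 8.08 ± 0.18 and the metalloreductase STEAP2 at 6.83 ± 0.33. Enzymes that make or convert steroids were detected on all arrays for 5 of 21 genes, led by HSD17B10 (11.20 ± 0.06) and HSD17B4 (10.36 ± 0.07), which also act on fatty acids, and by the 5-alpha reductase SRD5A1 (8.69 ± 0.10). The androgen-making AKR1C3 had a mean of 8.33 ± 0.21, while CYP17A1, HSD3B1, HSD3B2 and SRD5A2 were detected on no array.

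Of 18 listed genes of basal and squamous epithelium, 13 had a probe. Of these, 8 (61.5%, against 46.2% of all genes) were detected on all arrays. Of the 3 defining basal markers with a probe, 1 was detected on all arrays. Caveolin 1 (CAV1), a membrane coat protein, was bright with 13.29, 13.03, 13.07 and 12.95, and the hyaluronan receptor CD44 read 12.12, 11.80, 11.88 and 11.72. The growth factor receptor EGFR had a mean of 9.60 ± 0.20 and the laminin chain LAMB3 one of 9.28 ± 0.09. KRT5 read 4.53, 4.54, 4.75 and 4.61 and was undetected, as was KRT14, while KRT15 had a mean of 7.15 ± 0.28. Neuroendocrine genes were detected for 1 of 13 (7.69%), ENO2, a glycolytic enolase of neurons, with 9.98, 9.89, 9.82 and 9.79. Chromogranin A (CHGA) had a mean of 4.82 ± 0.15 and synaptophysin (SYP) read 5.69, 5.25, 5.24 and 4.92, both undetected.

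Of 22 genes of epithelial adhesion, 10 (45.5%, against 46.2% of all genes) were detected on all arrays, 4 on some and 8 on none. The simple-epithelium keratins KRT19 and KRT7 were bright, with means of 12.59 ± 0.12 and 12.36 ± 0.13, and the adhesion molecule EPCAM read 11.23, 11.37, 11.35 and 11.18. EPCAM rested on 1 of its 2 probes, since the other had a mean of 4.86 and was detected on no array. The transport protein MAL2 had a mean of 11.07 ± 0.10, beta-catenin (CTNNB1) one of 10.36 ± 0.14 and the tight junction scaffold TJP1 one of 10.25 ± 0.31. E-cadherin (CDH1), the main adhesion receptor of epithelia, read 5.34, 5.76, 5.41 and 4.95 and was undetected by its only named probe. Alpha-catenin (CTNNA1), which links cadherins to actin, read 4.98, 4.92, 5.48 and 5.41 by its brighter probe, and both of its probes were undetected. The splicing regulators ESRP1 and ESRP2, occludin (OCLN) and desmoplakin (DSP) were also detected on no array.

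Of 17 mesenchymal genes, 8 (47.1%, also near the share of all genes) were detected on all arrays, 1 on some and 8 on none. The intermediate filament vimentin (VIM) read 14.06, 14.38, 14.20 and 14.29, and the galectin LGALS1 read 14.41, 14.60, 14.62 and 14.65. N-cadherin (CDH2) read 12.16, 11.90, 12.10 and 12.04, well above background on every array, while the probe of E-cadherin was above background on none. Each of these cadherins rested on 1 probe, so their levels are not compared as amounts of RNA. Cadherin 11 (CDH11) had a mean of 10.38 ± 0.17, the transcription factor TWIST1 one of 9.70 ± 0.14 and the motility protein S100A4 one of 9.51 ± 0.21. The repressor ZEB1 read 5.76, 6.18, 6.35 and 5.68 and was detected on 2 arrays, and ZEB2 and SNAI1 on none, while SNAI2, a relative of SNAI1, was detected on all arrays at 8.15 ± 0.05. Among matrix genes, fibronectin (FN1) read 4.58, 4.90, 5.23 and 4.69, and COL1A2, COL3A1 and SPARC were undetected. The collagen chain COL1A1 was detected on all arrays, with a mean of 6.65 ± 0.18.

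Markers of other cell types were near background with few exceptions. None of 6 defining fibroblast and smooth muscle markers was detected on all arrays, and their summed intensity lay between 7.72 and 7.87 on the log2 scale. Smooth muscle actin (ACTA2) was detected on 3 arrays at 6.34, 6.47, 6.47 and 6.03. Of the wider list of 10 such genes, the collagen chain COL6A3 was detected on all arrays, with a mean of 8.34 ± 0.23. None of 4 defining endothelial markers was detected on any array, with sums of 6.84 to 7.01. Of 8 endothelial genes in all, the adhesion molecule ESAM was detected on all arrays, with a mean of 8.10 ± 0.18. Blood markers were detected for 2 of 6. The lysosomal protein CD68 read 11.08, 11.08, 11.25 and 11.13 and was detected on all arrays by each of its probes, while the endotoxin co-receptor CD14 had a mean of 6.19 ± 0.14, close to the dimmest detected probes. The pan-leukocyte gene PTPRC, the T cell gene CD3E, lysozyme (LYZ) and beta-globin (HBB) were detected on no array. For the labelled line itself, 4 of 5 epithelial markers and 3 of 9 luminal markers with a probe were detected on all arrays.

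**Figure D4:**
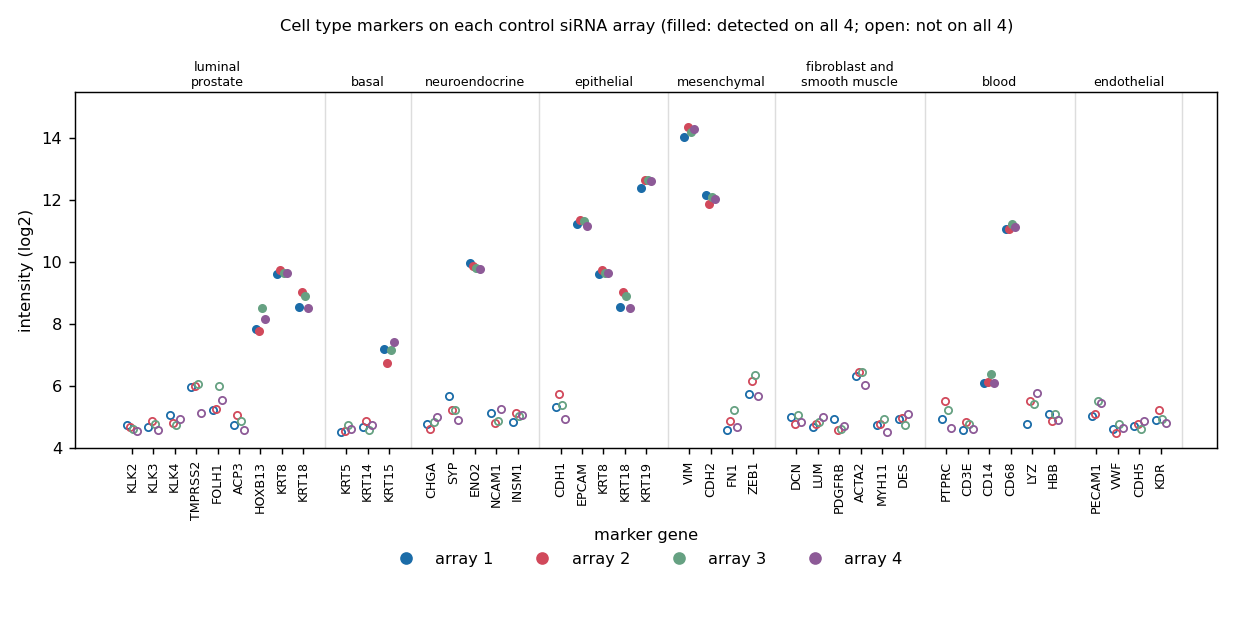
Log2 intensity (y axis) of each cell type marker (x axis, grouped by cell type) on arrays 1 to 4 of control siRNA PC3 cells, as filled points where the gene was detected on all 4 arrays and open points where it was not. VIM, KRT19, CDH2, EPCAM and CD68 lie above 11 on each array, and most secretory, basal, endothelial and fibroblast markers lie below 6.

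Receptor tyrosine kinases, which pass growth factor signals across the membrane, were detected on all arrays for 15 of 36 genes (41.7%, against 46.2% of all genes). The TAM receptors AXL and TYRO3 had means of 11.62 ± 0.09 and 9.62 ± 0.16, and their ligand GAS6 had one of 9.20 ± 0.20. The ephrin receptors EPHA2 and EPHB4 had 10.22 ± 0.23 and 10.16 ± 0.07, and the Wnt co-receptor RYK had 10.77 ± 0.15. EGFR read 9.64, 9.79, 9.65 and 9.32, and its ligand HBEGF read 8.99, 9.10, 9.17 and 8.71. Undetected on all arrays were IGF1R, INSR, FGFR1, FGFR2, FGFR3, PDGFRA, PDGFRB, KIT, KDR and FLT1, among 20 receptors in all.

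Growth factor ligands were detected for 15 of 30 genes, also near the share of all genes. The heparin-binding midkine (MDK) read 13.36, 13.92, 13.64 and 13.65, and the angiogenic factors VEGFB and VEGFC had means of 12.85 ± 0.21 and 11.58 ± 0.09. None of the VEGF receptor genes FLT1, KDR and FLT4 was detected on any array. The stress cytokine GDF15 had a mean of 10.61 ± 0.15. EGF, HGF, IGF1, IGF2 and TGFB1 were undetected by their probes.

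Downstream, 15 of 22 genes of the PI3K pathway, which signals growth and survival, were detected. The small GTPase RHEB, which activates mTOR, was bright at 12.42 ± 0.09. The kinase AKT1 read 11.75, 11.74, 11.13 and 11.13, so arrays 1 and 2 stood above arrays 3 and 4. The kinases GSK3B, MTOR and PDPK1 had means of 11.03 ± 0.20, 10.31 ± 0.21 and 10.08 ± 0.16, and the transcription factor FOXO3 had 10.72 ± 0.06.

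Of 15 genes of the RB pathway, cell cycle brakes and their regulators, 12 were detected on all arrays. The growth-promoting transcription factor MYC read 13.37, 13.49, 13.32 and 13.43. The cyclin-dependent kinase inhibitors CDKN2A and CDKN1A had means of 9.60 ± 0.08 and 9.49 ± 0.14, and CDKN1B one of 9.07 ± 0.18. RBL2, a relative of RB1, had a mean of 9.36 ± 0.09. The ubiquitin ligase MDM2 and the transcription factor TP73 were detected on no array. In the BCL2 family, which controls cell death, the anti-death member BCL2L1 was bright with 14.45, 14.52, 14.18 and 14.17. The anti-death MCL1 had a mean of 8.85 ± 0.09, and the pro-death BAD, BAX and BOK had 11.45 ± 0.20, 10.89 ± 0.04 and 9.38 ± 0.19. The pro-death BBC3 and BMF and the anti-death BCL2A1 were undetected, and 11 of 16 members were detected on all arrays.

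Of 34 Wnt ligands, receptors and inhibitors, which pattern tissues in development, 14 (41.2%) were on all arrays, near the 46.2% of all genes, led by the secreted inhibitor DKK1, which was bright with 14.97, 14.63, 14.76 and 15.07. Its other probe was detected too, at a mean of 9.30. The frizzled receptors FZD4, FZD2 and FZD8 had means of 10.54 ± 0.07, 10.48 ± 0.18 and 10.36 ± 0.10, the co-receptor LRP5 had 10.46 ± 0.18 and the ligand WNT7A had 9.77 ± 0.19. The co-receptor LRP6 was undetected. In the Notch pathway, which signals between touching cells, 9 of 14 genes (64.3%) were detected, with the ligands DLL3 (10.48 ± 0.18) and JAG1 (9.45 ± 0.18), the targets HEY1 (9.43 ± 0.07) and HES1 (8.73 ± 0.11), the DNA-binding RBPJ (8.76 ± 0.16) and the receptor NOTCH1 (8.48 ± 0.15).

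HOX genes, which set position along the body axis, were detected on all arrays for 8 of 29. HOXC6 read 10.76, 10.97, 10.90 and 11.05, HOXC13 had a mean of 9.37 ± 0.11 and HOXC8 one of 8.93 ± 0.17. HOXB13 followed at 8.08 ± 0.34, HOXB5 at 8.04 ± 0.15 and HOXD12 at 6.81 ± 0.21. Of the HOXA cluster, only HOXA2 had a named probe, and it was detected on 3 arrays.

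Nuclear receptors, transcription factors switched by hormones and lipids, were detected for 14 of 40. The fat-cell regulator PPARG was bright with 12.68, 12.54, 12.65 and 12.65, although 2 of its probes were detected on no array. The orphan receptor NR2F1 read 11.41, 11.73, 11.58 and 10.68, with array 4 lowest. NR2F6, RXRA, RARA and ESRRA had means of 10.57 ± 0.09, 10.22 ± 0.08, 10.00 ± 0.19 and 9.32 ± 0.10. The oestrogen receptors ESR1 and ESR2 and the progesterone receptor PGR were undetected. The glucocorticoid receptor NR3C1 read 5.99, 5.52, 6.12 and 5.12 and was detected on 1 array.

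Integrins, the receptors for matrix, pair an alpha with a beta chain. Of 26 chains, 10 (38.5%, against 46.2% of all genes) were detected on all arrays. The shared chain ITGB1 read 13.83, 13.77, 13.88 and 13.75. Of its partners, ITGA3 had a mean of 11.81 ± 0.19 and ITGA5 one of 9.34 ± 0.09, and ITGA2 one of 8.94 ± 0.22. ITGB5 had 10.66 ± 0.12 and the lymphocyte-associated ITGAE had 9.91 ± 0.23. Proteases and their inhibitors were detected for 15 of 27 (55.6%). Urokinase (PLAU), which activates plasmin, was bright with 14.12, 13.97, 13.85 and 14.08, and the metalloprotease inhibitor TIMP1 was bright with 14.06, 14.16, 14.13 and 13.95. The serine protease inhibitors SERPINE2 and SPINT2 had means of 12.35 ± 0.06 and 12.20 ± 0.06, TIMP2 one of 11.52 ± 0.21 and the lysosomal protease CTSB one of 10.95 ± 0.10. The matrix metalloproteases MMP1, MMP2, MMP3, MMP7, MMP10, MMP13 and MMP14 were undetected, and MMP9 was detected on all arrays at 6.60 ± 0.20.

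Innate immune genes included both detected and undetected members. Sensors detect foreign nucleic acid and other microbial products. Of 26 sensors and their partners, 12 (46.2%, against 46.2% of all genes) were detected on all arrays. No toll-like receptor was detected on any array, though their adaptor TICAM1 had a mean of 11.13 ± 0.19 and MYD88 one of 8.65 ± 0.12. The double-stranded RNA kinase EIF2AK2 had a mean of 10.74 ± 0.06, the kinase TBK1 one of 9.51 ± 0.09 and the transcription factors IRF3 and IRF7 had 9.17 ± 0.12 and 8.84 ± 0.20. The RNA sensor RIGI was detected on 3 arrays at 6.67, 6.35, 6.18 and 6.59, and IFIH1 on none. Because every sample had received an siRNA, the level of these genes in untransfected cells was not analysed here.

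Interferon-stimulated genes were detected for 16 of 27. The membrane proteins IFITM2 and IFITM3 were bright at 13.43 ± 0.22 and 13.08 ± 0.14, and their probes may read each other's transcripts. The ubiquitin-like ISG15 had a mean of 11.53 ± 0.15, IFI6 one of 10.83 ± 0.19 and the peptide transporter TAP1 one of 10.35 ± 0.17. Antiviral effectors were divided. IFIT1, IFIT2 and IFIT3, which bind foreign RNA, were detected on all arrays at 7.45 ± 0.21, 7.46 ± 0.43 and 6.66 ± 0.14, as were OAS3 (7.08 ± 0.18), HERC5 (7.47 ± 0.17) and IFI44 (6.80 ± 0.23). OAS1, OAS2, MX2, IFI44L and RSAD2 were undetected, and MX1 was detected on 1 array.

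Cytokines and chemokines were detected for 8 of 25. MIF, a cytokine that most cells store, read 13.78, 14.12, 13.92 and 14.16, and IL18, made as a precursor by epithelia, read 13.26, 13.32, 13.24 and 13.15. The neutrophil attractant CXCL8 had a mean of 10.29 ± 0.18 and CXCL16 one of 9.81 ± 0.07. IL32 and IL1B had 7.31 ± 0.18 and 7.09 ± 0.26. TNF, IL1A, IL11, CXCL1, CCL2 and CCL20 were detected on no array. Of 27 cytokine receptors, 14 (51.9%) were detected on all arrays. The interferon receptor IFNGR2 had a mean of 11.86 ± 0.09 and the death receptor TNFRSF10B one of 10.82 ± 0.18. TNFRSF1A and IL13RA1 had 10.77 ± 0.06 and 9.53 ± 0.19. The chemokine receptor CCR6 was bright at 13.90 ± 0.24 by 1 of 3 probes. The receptors of CXCL8, CXCR1 and CXCR2, and the IL1 receptor IL1R1 were undetected.

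Glycolysis was represented by 17 of 25 genes on all arrays, 10 of them bright. ENO1 read 14.98, 15.03, 15.09 and 15.09, and lactate dehydrogenase A (LDHA) read 14.81, 14.76, 14.84 and 14.67. GAPDH had a mean of 14.74 ± 0.01, TPI1 one of 14.42 ± 0.05, hexokinase 1 (HK1) one of 14.21 ± 0.13 and ALDOA one of 14.11 ± 0.22. Forms known from other tissues were divided. LDHC, PGK2 and GAPDHS of the testis, PKLR of liver and red cells and PGAM2 of muscle were undetected. The brain forms ALDOC and ENO2 and the muscle form PFKM were detected on all arrays with means of 10.86 ± 0.10, 9.87 ± 0.09 and 9.74 ± 0.14, and the muscle form ENO3 on 3 arrays. Glucose and amino acid carriers were detected for 10 of 22 (45.5%), near the share of all genes. The leucine carrier SLC7A5 had a mean of 12.36 ± 0.32, its partner chain SLC3A2 had a mean of 10.81 ± 0.12, and the glutamine carriers SLC38A1 and SLC38A2 had 12.34 ± 0.14 and 10.91 ± 0.10. The glucose carrier SLC2A1 had 9.96 ± 0.18, and the insulin-responsive SLC2A4 and the fructose carrier SLC2A5 were undetected.

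Cancer-testis antigens, which adult tissues other than testis rarely make, were detected for 8 of 30. MAGEA10 read 11.49, 11.44, 11.57 and 11.57. MAGEA6, MAGEA3 and MAGEA12 had means of 10.26 ± 0.17, 9.28 ± 0.10 and 9.15 ± 0.04, and these near-identical copies are uncertain as single genes. CTAG2 had 9.59 ± 0.13 and PRAME 9.03 ± 0.14, while the MAGEB, MAGEC and SSX genes with a probe were undetected.

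Of 30 TRP channel and calcium entry genes, 9 (30.0%) were detected on all arrays, 4 on some and 17 (56.7%) on none, against 46.2% and 48.2% of all genes on all arrays and on none. At a detection p under 0.05, 15 were on all arrays. The calcium release channel ITPR3 of the endoplasmic reticulum read 11.60, 11.85, 11.54 and 11.96. The lysosomal channels MCOLN1, MCOLN2 and MCOLN3 had means of 10.51 ± 0.18, 9.29 ± 0.27 and 7.23 ± 0.20, and the store-operated channel ORAI1 and its sensor STIM1 had 8.97 ± 0.06 and 7.25 ± 0.12. TRPM7, TRPM8, TRPV1, TRPV6 and TRPC6 were detected on no array. TRPM2 and its antisense transcript TRPM2-AS, the target of the study, had no named probe and were not analysed here. Long non-coding RNAs were detected for 4 of 12, namely TUG1 (12.31 ± 0.15), SNHG5 (10.44 ± 0.21), PVT1 (8.38 ± 0.18) and the telomerase RNA TERC (7.72 ± 0.32). The probe of MALAT1, a nuclear RNA, read 4.70, 4.75, 4.51 and 4.62 and was undetected.

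ABC transporters, which pump lipids and drugs, were detected for 21 of 37 genes (56.8%, against 46.2% of all genes). The translation-linked ABCF1 was bright at 12.65 ± 0.21, followed by ABCE1 at 11.58 ± 0.22 and ABCF2 at 10.87 ± 0.13. The drug pumps ABCB1 and ABCG2 were undetected, while ABCC5, ABCB9 and ABCA7 had means of 9.70 ± 0.14, 9.63 ± 0.16 and 9.59 ± 0.29. Housekeeping genes were detected for 11 of 12, with YWHAZ at 14.06 ± 0.07, the transferrin receptor TFRC at 13.88 ± 0.12, B2M at 12.17 ± 0.11 and HPRT1 at 11.91 ± 0.07. The exception was the probe of cyclophilin A (PPIA), which read 6.16, 6.01, 6.31 and 6.04 and was detected on 3 arrays.

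The 4 arrays lay close together. Across the 8717 genes detected on all arrays, Pearson's r between pairs of arrays was 0.990 to 0.994, a value across genes, which are not independent replicates. The SD of a gene between arrays had a median of 0.15, or 1.11-fold, with quartiles of 0.10 and 0.21 and a 95th percentile of 0.32. In 7744 genes (88.8%) the highest and lowest arrays differed by less than 1.5-fold, and in 74 (0.849%) by at least 2-fold. That last count was 13 without background correction, 33 with an offset of 50, 11 in the authors' processed values and 114 with 1 median per array. The spread was wider at low brightness, with a median SD of 0.19 below a log2 intensity of 8, 0.15 from 8 to 10, 0.13 from 10 to 12 and 0.11 above 12.

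Array 4 stood apart in the genes that varied most. It lay at least 1.5-fold below each other array in 57 genes and above each in 6. The counts were 8 and 4 for array 1, 25 and 25 for array 2, and 4 and 1 for array 3. Pairs with array 4 differed by at least 2-fold in 23 to 39 genes, and the other pairs in 3 to 13. Of the 16 genes with the largest SD, 15 had array 4 lowest. Replicate 4 was lowest in 15 of them in the authors' processed values too. Those values rank the probes of each array alike, so they are not independent of the first count. The phospholipase PLCB4 read 8.63, 8.92, 8.74 and 7.01, the tetraspanin TSPAN5 read 11.76, 11.81, 11.75 and 10.36, and the cofilin phosphatase SSH1 read 8.39, 8.46, 8.22 and 6.95. In each of these, arrays 1 to 3 were close and array 4 was well below. ITPRIPL2 read 10.23, 10.94, 10.41 and 9.02. The kinase TAOK1 read 7.50, 7.44, 7.57 and 6.22, and NF2, a tumour suppressor at the membrane, read 7.49, 7.63, 7.49 and 6.34. NBPF10 and NBPF9, near-identical copies that are uncertain as single genes, had means of 13.19 ± 0.79 and 13.18 ± 0.70, again with array 4 lowest. The exception was COTL1, an actin-binding protein, which read 7.01, 8.48, 7.30 and 7.10, with array 2 highest.

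The 57 genes low on array 4 had a median genomic span of 51.4 kb, against 28.2 kb for all genes detected on all arrays. The genes low on array 2 (58.7 kb, 25 genes) and on array 3 (70.3 kb, 4 genes) had longer spans still, and those low on array 1 shorter ones (13.9 kb, 8 genes). Without array 4, 21 genes differed by at least 2-fold between the remaining arrays and the median SD was 0.14. Normalizing anew without array 1, 2 or 3 gave 54, 46 and 62 such genes, with median SDs of 0.14, 0.13 and 0.15. Array 4 thus stood apart in the genes that varied most, not in the median SD. Array 4 detected 13792 probes, within the range of the other arrays. RNA integrity values were not used here, and whether RNA quality or culture took part in the difference was not tested.

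**Figure D5:**
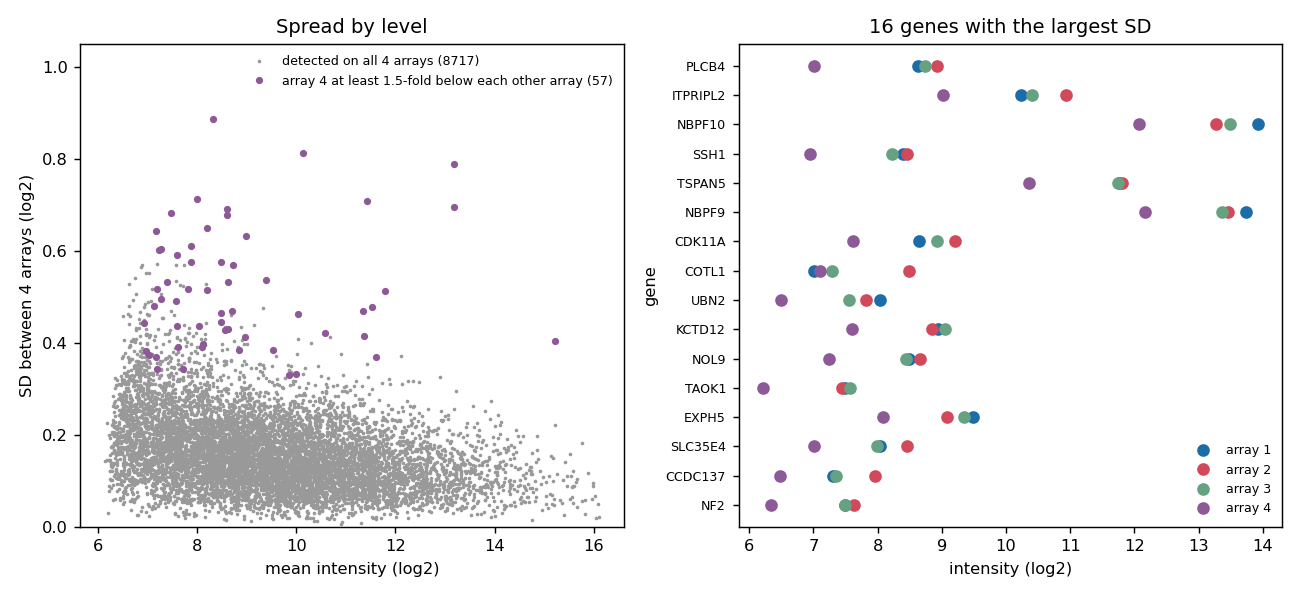
Left, the SD between the 4 control siRNA arrays (y axis, log2) against the mean log2 intensity (x axis) for 8717 genes detected on all arrays, with the 57 genes that array 4 read at least 1.5-fold below each other array in purple. Right, the log2 intensity on each array for the 16 genes with the largest SD (y axis), where array 4 is lowest in 15 and COTL1 is the exception.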

How the data were processed

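Total RNA, labelled with biotin, was read on 1-colour Illumina bead arrays. The deposited non-normalized table pairs the intensity of each probe with its detection p-value, per the file headers. BeadStudio and limma are named, without versions or settings, in the submitters' processing notes. The deposited processed intensity table was used for alternatives alone. The 12 columns of TRPM2-AS siRNA samples were not used.

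Intensities were corrected with limma 3.58.1 in R 4.3.3 (normal-exponential model from detection p-values, offset 16), quantile normalized over the 4 arrays and put on the log2 scale, and counted and searched in Python 3.11.15. The steps were tested on simulated data. Names came from the platform annotation: 28094 probes had 1 gene name, 13 several and 20691 none; 28055 probes had a gene identifier in the RefSeq table and 0 names changed. Detection meant a detection p under 0.01, with 0.05 and 0.001 as alternatives, beside no background correction, an offset of 50, 1 median per array, the top 10% as bright and each array left out. No test between groups was run; Dixon's limit alone was used to mark single arrays, and the number of arrays limits the precision.

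Members, the 33 lists (821 entries, 734 genes with a probe) and the 18 symbol families were chosen with earlier results of these data known. The rule named the 24 brightest genes (at most 6 ribosomal proteins), up to 6 detected members of each list by mean and undetected members by name, the 16 genes of largest SD, the 5 brightest with split probes, and fixed lineage genes. Cell type markers were named too. CDK1, PRC1, MKI67, RPS3, HPRT1, PPIA, MYD88, RIGI, MX1, NR3C1, HOXA2, ALDOC, PFKM, ENO3, FKBP5, PMEPA1, STEAP2, SNAI2, COL1A1, MMP9, IFIT1, IFIT2, IFIT3, OAS3, HERC5, IFI44, PSMC1, PSMA8, NDUFA1, OR2W3, KRTAP20-2 and DEFB119 were named after their values were seen.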

Additional observations from a re-analysis of the deposited data

Results flagged for a closer look

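Of 210 genes named by value, 20 had 1 array farther from the other 3 than Dixon's 95% limit for 4 values allows, which chance gives in about 1 of 20 genes. The 210 include the 16 genes named for their large SD, of which 7 are among the 20, so those are not independent of their choice. Of the other 194 genes, 13 (6.70%) had an array apart, with array 1 in 3, array 2 in 4, array 3 in 3 and array 4 in 3. Among the genes of large SD, array 4 read 7.01 in PLCB4, 6.95 in SSH1, 10.36 in TSPAN5, 7.60 in KCTD12, 7.25 in NOL9, 6.22 in TAOK1 and 6.34 in NF2, each below the other arrays. Elsewhere it was lowest in FZD4 with 10.44, and highest in CDH11 with 10.63 and in FTL with 15.79.

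Array 2 was lowest in B2M with 12.01, IFNGR2 with 11.73 and RPL38 with 15.93, and highest in the lysosomal channel MCOLN2 with 9.69. Array 3 was lowest in ITGA3 with 11.53, and highest in CD14 with 6.41 and RPL41 with 16.06. Array 1 was lowest in KRT19 with 12.41, and highest in ATP5F1EP2 with 15.52 and YWHAZ with 14.17. The 95th percentile of the non-normalized intensity was 1954 on array 2, apart from 2286 to 2303 on the others.

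Outside the named genes, 1593 probes without a gene name (7.70%) were detected on all 4 arrays, against 39.3% of probes with a name. Their targets were not analysed here.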

How the results depend on the processing

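The counts of genes detected on all arrays (8717) and on none (9093) stayed within 1.5 times under each alternative run, with 6993 and 10930 at a detection p under 0.001 and 9826 and 6374 under 0.05. Genes on 1 to 3 arrays rose to 2650 under 0.05, where their share with TATAAA was 11.05%. Taking the top 10% gave 1712 bright genes. The count of genes at least 2-fold apart (74) depended on the processing, with 13 without background correction, 33 with an offset of 50, 114 with 1 median per array and 11 in the authors' processed values. Leaving out 1 array gave 21 to 62 such genes, with 21 without array 4 and 46 without array 2. Of 198 list counts under alternatives, 193 stayed within 1.5 times. Neuroendocrine genes went from 1 to 2 (under 0.05, or without array 2), fibroblast genes from 1 to 2 (under 0.05, or without array 4) and TRP and calcium entry genes from 9 to 15 (under 0.05). Of 210 means, 74 moved by over 1 SD without background correction, 88 in the processed values and 0 with 1 median per array. No paired analysis was possible because 1 group was described and no groups were compared. Brightness near a log2 intensity of 6 is limited by the background, where detection was uncertain.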
